A study of Mus musculus with 4 samples.

Results

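The genes described here are T, which encodes Brachyury, and the primitive streak and mesendoderm genes that are usually measured beside it, in mouse epiblast stem cells in which Tox4 was knocked down. They were picked by gene symbol from a list of 10 names: T, Mixl1, Eomes, Gsc, Evx1, Foxa2, Lhx1, Sp8, Fst and Sox17. Of these, 8 were found among the 15429 genes of the table, and Mixl1 and Evx1 were not analysed here. Epiblast stem cells are pluripotent cells derived from the post-implantation embryo. The line, OE7, carries the Oct4-Gip transgene, a green fluorescent reporter of Oct4. Both groups were at passages 21 to 25 and grew on fibronectin in N2B27 medium to which Activin A (20 ng/ml) and Fgf2 (12 ng/ml) were added. The control group received Luc esiRNA (n = 2 libraries) and the other group Tox4 esiRNA (n = 2 libraries), each as 1000 ng with 2 µl lipofectamine. An esiRNA is a mixture of short interfering RNAs cut enzymatically from a long double-stranded RNA. The time between transfection and harvest is not given in the sources used here, nor whether replicate libraries stem from different cultures. The p-values therefore describe the spread among these 4 libraries, and that spread may be only technical.

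The primitive streak is the furrow in the posterior epiblast through which cells leave to form mesoderm and endoderm at gastrulation. Wnt and Nodal signals, with BMP and FGF, switch on T and Eomes there, and the level and duration of Nodal or Activin signalling bias cells towards the anterior streak, marked by Gsc, Foxa2 and Lhx1, or towards its posterior part. Cultured epiblast stem cells kept in Activin A and Fgf2 are known to express streak genes at varying levels without leaving the pluripotent state, and T is often used to mark the cells of a culture that lean towards the streak.

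The promoter sequences of the genes that moved, or that lay apart between the groups, are shown first because T is the gene on which the results turn. RefSeq start sites (GRCm38.p6) were listed for 7 of the 10 names. The 250 bases before the start site are given 5′ to 3′ on the strand of the gene for T (chr17:8434173-8434422, plus strand), Eomes (chr9:118477939-118478188, plus strand) and Foxa2 (chr2:148046970-148047219, minus strand, of 3 listed start sites the one at the annotated gene start). Capitals mark the letters CTTTG or their reverse complement CAAAG, the core of the sequence that the Wnt effectors TCF and LEF bind.
T: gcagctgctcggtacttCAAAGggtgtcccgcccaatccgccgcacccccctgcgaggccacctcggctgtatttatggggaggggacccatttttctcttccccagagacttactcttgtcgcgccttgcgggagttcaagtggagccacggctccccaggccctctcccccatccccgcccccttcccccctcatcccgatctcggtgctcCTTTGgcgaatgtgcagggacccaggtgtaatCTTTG
Eomes: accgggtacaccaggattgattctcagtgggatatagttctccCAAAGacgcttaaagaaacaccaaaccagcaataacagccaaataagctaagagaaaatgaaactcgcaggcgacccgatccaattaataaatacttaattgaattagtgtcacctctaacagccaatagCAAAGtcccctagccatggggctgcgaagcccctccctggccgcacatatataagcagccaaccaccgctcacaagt
Foxa2: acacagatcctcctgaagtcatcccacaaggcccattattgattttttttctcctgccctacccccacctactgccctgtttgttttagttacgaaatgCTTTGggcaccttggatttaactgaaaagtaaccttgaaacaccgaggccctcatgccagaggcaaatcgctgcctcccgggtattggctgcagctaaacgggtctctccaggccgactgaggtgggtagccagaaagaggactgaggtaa

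The core was present 3 times in the T window, at bases -233 to -229, -37 to -33 and -5 to -1 from the start site, 2 times in the Eomes window and 1 time in that of Foxa2. It is short, and 48.6% of all 32851 RefSeq windows of this length held it on either strand. Among the genes whose windows are not shown, that of Gsc held it at -248 to -244. A window at 1 of the Sp8 start sites held it at -49 to -45, and those of Lhx1 and Evx1 did not. The T window also held the GC box GGGCGG as its reverse complement CCGCCC at -222 to -217 and at -73 to -68, and a CCAAT box at -218 to -214 that overlaps the first of these. The Eomes window held the CCAAT box at -127 to -123 and at -84 to -80. That of Foxa2 held its reverse complement ATTGG at -68 to -64. The GC box was present in 32.7% and the CCAAT box in 33.8% of all windows. Neither the T-box half-site AGGTGTGA, found in 1.12% of windows, nor the FoxH1 site AATCCACA, found in 0.718%, was among the letters of the 3 windows on either strand. The Smad box CAGAC, found in 42.2%, and the TATA box letters TATAAA, found in 12.4%, were not among them either. Only these exact letters were searched. Near its start site the Eomes window holds TATATAA, a close variant of the TATA box. The T window holds AGGTGTAA, a close variant of the T-box half-site, near its own start site. Other variants were not searched for. These matches describe the letters of the windows, and binding was not measured.

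The knockdown and the cell type were checked first. Tox4 was at 16.7 and 17.5 FPKM (fragments per kilobase of gene, scaled to library size) in Luc replicates 1 and 2 and at 8.65 and 8.89 FPKM in Tox4 replicates 1 and 2 (log2 fold change -0.89, SE 0.05, limma adjusted p = 0.00228), although 1128 bases of its exons overlap genes on the opposite strand. Whole reads worked back from the values came to 12778056 to 19008829 per library. Pou5f1, which encodes Oct4, was between 582 and 613 FPKM in the 4 libraries. All 15 epiblast stem cell markers of a list were above 1 FPKM on average, with Tdgf1 and Nanog next to Pou5f1 as the most abundant. Not all of these 15 kept their level: 3 fell and 1 rose in limma, as given below. Of 10 naive pluripotency markers 5 were found, and neither of the 2 tested passed in limma or limma-voom. At an unadjusted p under 0.05 there was 1 lower, where 11.5% of all tested genes were lower. The highest of those found were Klf5 at 5.92 to 8.03 FPKM and Klf2 at 3.77 to 4.81 FPKM, followed by Klf4 at 0.625 to 1.19 FPKM.

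T fell to 0.439 of its control level and was the single gene of the 8 that passed the test. T is a T-box transcription factor required for mesoderm to leave the streak and for the notochord. It was at 12.2 and 12.6 FPKM in the Luc libraries and at 5.31 and 5.59 FPKM in the Tox4 libraries, on 549, 447, 185 and 169 reads. Both Tox4 libraries lay far below both Luc libraries, and the replicates of each group lay close together. The means were 12.4 ± 0.274 and 5.45 ± 0.202 FPKM (SD, n = 2 each), and the 95% interval of the ratio of reads, which covers counting error only, was 0.388 to 0.496. On the log2(FPKM + 1) scale, which understates changes of low values, T was lower by a log2 difference of -1.06, with an SE of 0.06 and a 95% interval of -1.20 to -0.91 (limma adjusted p = 0.00228 over 12403 genes). Ordered by this fold change, T was the gene with rank 14 among the 325 that fell. T (ENSMUSG00000062327) spans bases 8434423 to 8442496 of chromosome 17 (GRCm38, plus strand), with 8 exon blocks, none of which overlaps a gene on the opposite strand. In bulk libraries such as these, fewer cells that express a gene and less of its RNA per cell cannot be told apart.

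**Figure D1:**
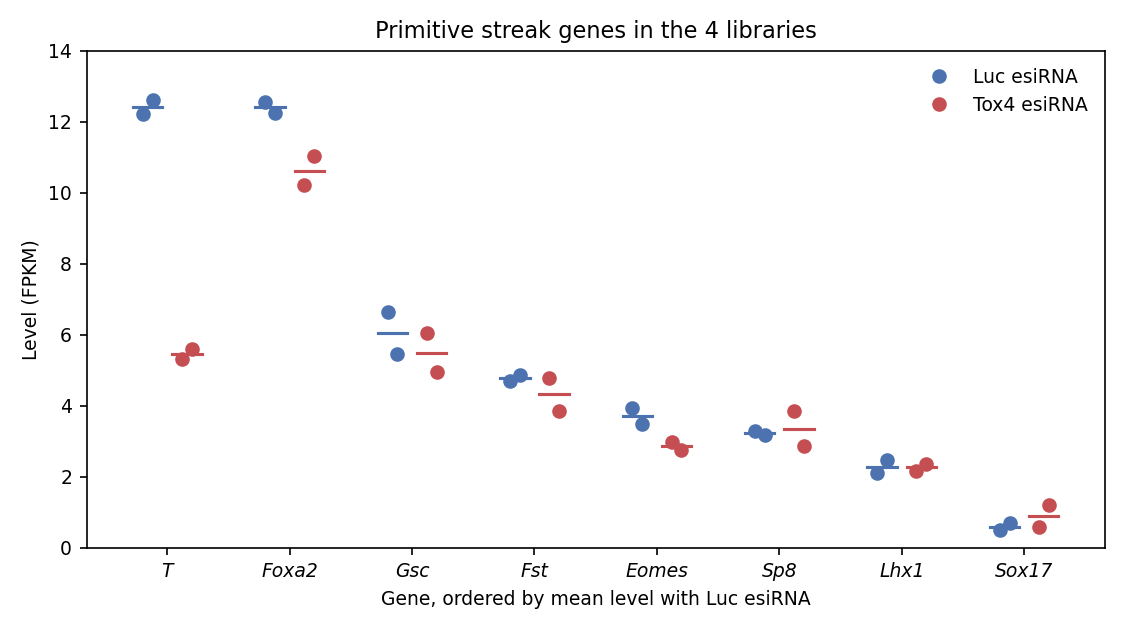
Level in FPKM (vertical axis, from 0) of the 8 primitive streak genes in each library, with Luc esiRNA in blue and Tox4 esiRNA in red; points are libraries and short lines are the means of 2. T dropped from a mean of 12.4 to 5.45 FPKM, while the points of 5 genes (Gsc, Fst, Sp8, Lhx1 and Sox17) overlap between the groups.

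The test covered the 7 genes that averaged 1 FPKM or more. Of these 1 fell (T), none rose and 6 did not pass, where 2.62% of all 12403 tested genes fell and 1.89% rose. At an unadjusted p under 0.05 there were 3 lower and none higher, where 21.6% of all tested genes passed in either direction and 11.5% as lower. Limma-voom on the recovered reads called 2 lower and none higher, against 5.87% lower and 5.95% higher among all tested genes. The median log2 fold change of the 7 was -0.12, against -0.0034 over all tested genes. T, Eomes and Foxa2 had no overlap between the groups, each lower with Tox4 esiRNA, and the other 5 genes overlapped. Among all tested genes the groups lay apart for 52.0%, of which 26.7 percentage points were lower and 25.3 higher.

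Eomes is the other T-box factor of the early streak and is needed for definitive endoderm and for the first mesoderm. It was at 3.93 and 3.49 FPKM in the Luc libraries and at 2.99 and 2.77 FPKM in the Tox4 libraries, on 300, 210, 177 and 142 reads. Both Tox4 values lay under both Luc values, by a margin close to the spread between the Luc libraries. This difference of -0.28 on the log2 scale, with an SE of 0.09 and a 95% interval of -0.50 to -0.05, did not pass (limma adjusted p = 0.155). In limma-voom on the recovered reads Eomes passed (log2 fold change -0.37, adjusted p = 0.0300). Exons of Eomes share 118 bases with those of Gm33460 on the opposite strand, and unless the counting used strand the reads of the 2 genes cannot be separated there.

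Foxa2, a forkhead factor of the anterior streak, node and endoderm, was at 12.5 and 12.3 FPKM with Luc esiRNA and at 10.2 and 11.0 FPKM with Tox4 esiRNA, on 528, 407, 333 and 312 reads. The groups lay apart, with a ratio of means of 0.856 and a 95% counting interval of the read ratio of 0.770 to 0.944. Its log2 fold change of -0.21 (SE 0.06, 95% interval -0.35 to -0.07) did not pass (limma adjusted p = 0.107), nor did it in limma-voom (adjusted p = 0.0583). Foxa2 and T stood at the same level in the Luc libraries, and the ratio of T to Foxa2 was 0.973 and 1.03 there against 0.520 and 0.507 in the Tox4 libraries.

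The other anterior streak and organizer factors were close to their control levels. Gsc, a homeobox factor of the organizer, was at 6.65 and 5.46 FPKM in the Luc libraries and at 6.04 and 4.95 FPKM in the Tox4 libraries. The groups overlapped, with a log2 fold change of -0.12 (95% interval -0.41 to 0.17, limma adjusted p = 0.618) on 44 to 88 reads per library. Lhx1, a LIM-homeobox factor of the node and anterior mesendoderm, was at 2.10 and 2.46 FPKM with Luc esiRNA and at 2.16 and 2.37 FPKM with Tox4 esiRNA. Its Tox4 values lay between its Luc values (-0.0041, 95% interval -0.27 to 0.26, adjusted p = 0.988), on 83 to 109 reads. These intervals still include falls of the size seen for Foxa2.

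Sp8, a zinc finger factor of the streak, tail bud and limb, was at 3.28 and 3.17 FPKM in the Luc libraries, and the Tox4 libraries lay on either side at 3.86 and 2.86 FPKM (log2 fold change 0.04, 95% interval -0.27 to 0.34, limma adjusted p = 0.907). Fst encodes follistatin, a secreted protein that binds and blocks Activin, the factor added to the medium. It was at 4.69 and 4.87 FPKM with Luc esiRNA and at 4.78 and 3.86 FPKM with Tox4 esiRNA. The lower mean came from Tox4 replicate 2, and the log2 fold change of -0.12 (95% interval -0.37 to 0.12, adjusted p = 0.538) was 0.00090 without that library. Exons of Fst share 115 bases with Gm47040 on the opposite strand.

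Sox17, an endoderm factor, had a mean under 1 FPKM and was not among the tested genes. It was at 0.501 and 0.692 FPKM in the Luc libraries and at 0.587 and 1.22 FPKM in the Tox4 libraries, on 11, 12, 10 and 18 reads. The higher mean with Tox4 esiRNA rested on Tox4 replicate 2 alone. Without the filter on low values its log2 fold change was 0.24 (95% interval -0.31 to 0.78, limma adjusted p = 0.618). The 95% counting interval of its read ratio ran from 0.836 to 2.73, a range that holds falls as well as rises. This interval takes the recovered reads as they stand, and it would be narrower if they were too low by a common factor. Its exons share 804 bases with Gm37587 on the opposite strand.

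**Figure D2:**
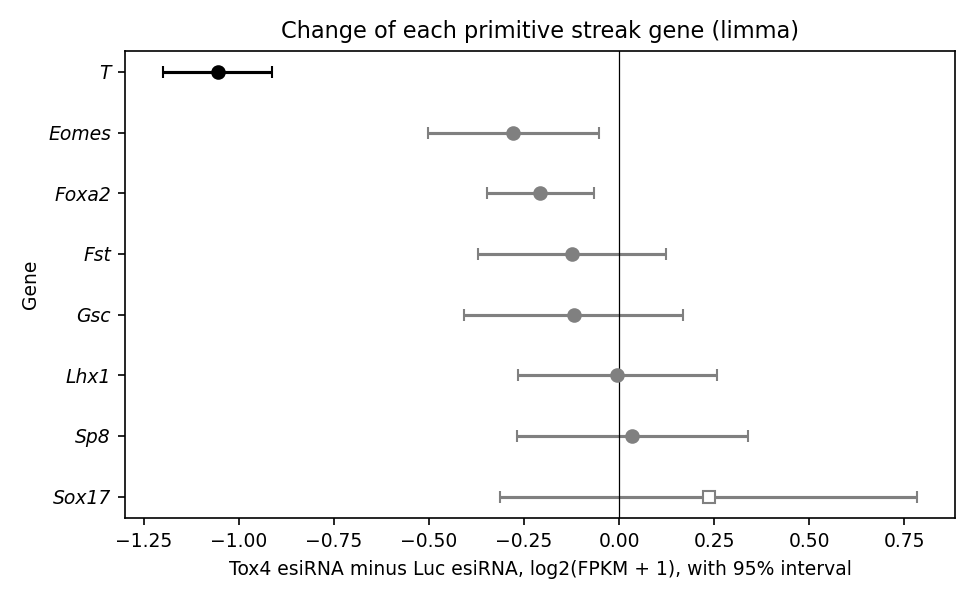
Difference between Tox4 and Luc esiRNA on the log2(FPKM + 1) scale (horizontal axis) for each of the 8 genes, with the 95% interval of the limma fit; black marks adjusted p under 0.05, grey did not pass, and the open square (Sox17) comes from the fit without the filter on low values. T at -1.06 lies apart from the other 7, whose estimates run from -0.28 to 0.24.

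The order of the genes by level differed between the groups. With Luc esiRNA, T and Foxa2 were highest, at 12.4 FPKM each, and their values overlapped; Gsc, Fst, Eomes, Sp8, Lhx1 and Sox17 followed, each apart from the next. With Tox4 esiRNA, Foxa2 alone was highest at 10.6 FPKM, T at 5.45 FPKM overlapped with Gsc at 5.50 FPKM, and Sp8 overlapped with Eomes. FPKM values are per length, and the order rests on the lengths that the submitters used. Lengths worked back from the values were shorter than the annotated exons for some genes (680 of 1268 bases for Gsc, 1129 of 4772 for Sox17, 2259 of 4589 for Fst, against 2311 of 2315 for T). Such a length could be too short by a common factor in the recovery, which would leave the FPKM values and their order unchanged. By mean level the genes spanned the percentiles 15.5 (Sox17) to 59.3 (Foxa2) of all genes in the table.

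T fell relative to each of the other 7 genes within the libraries. The ratio of T to Eomes was 3.11 and 3.61 in the Luc libraries and 1.77 and 2.02 in the Tox4 libraries, and that of T to Gsc was 1.84 and 2.31 against 0.878 and 1.13. The ratio of T to Lhx1 was 5.83 and 5.12 against 2.46 and 2.36, and that of T to Fst was 2.61 and 2.59 against 1.11 and 1.45. The differences in the log2 ratio ran from -0.82 (Eomes) to -1.71 (Sox17), and the groups lay apart for all 7 ratios. A 2 against 2 comparison cannot go below p = 0.333 in an exact two-sided permutation test, which each ratio reached, so this difference between T and the other genes is not past a threshold in that test. All 7 ratios share the T values.

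**Figure D3:**
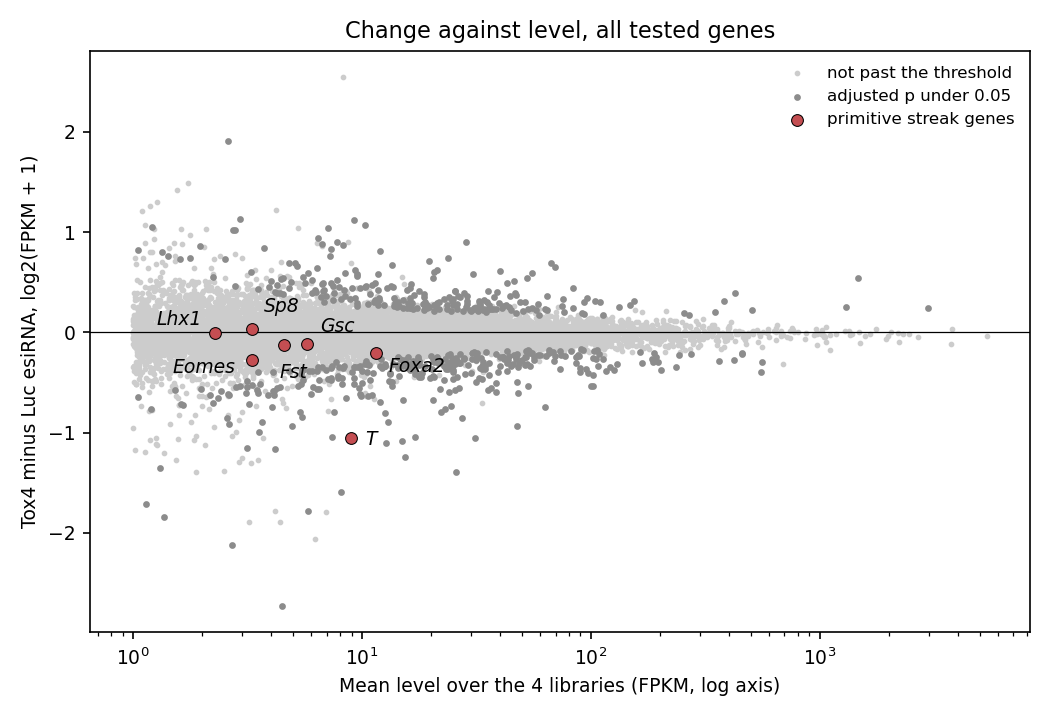
Difference between Tox4 and Luc esiRNA on the log2(FPKM + 1) scale (vertical axis) against the mean level in FPKM (horizontal axis, log scale) for the 12403 tested genes; dark grey marks adjusted p under 0.05 and red the 7 tested primitive streak genes. T at -1.06 lies below the band that holds most genes of its level, and the other 6 lie within it.

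The T-box family showed no other call. Of 4 tested family genes T fell and the others did not pass, and limma-voom called T and Eomes. Tbx6, a factor of presomitic mesoderm, had a log2 fold change of -0.12 (limma adjusted p = 0.580), and Mga, a large nuclear protein with a T-box and a Myc-like domain, was at -0.07. The genes around T on chromosome 17 gave no call. Of 12 genes of the table within 1 Mb on either side, 7 were tested and none passed in limma, at an unadjusted p under 0.05 or in limma-voom. The log2 fold changes of 6 of them ran from -0.09 to 0.17. Fndc1, at -1.90 (limma adjusted p = 0.384), was at 12.9 FPKM in Luc replicate 1 and listed at 0 in the other 3 libraries. Its fold change rests on that library alone. T2, the gene next to T upstream, was at 0.215 and 0.218 FPKM with Luc esiRNA and at 0.333 and 0.384 FPKM with Tox4 esiRNA.

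Genes of the nascent mesoderm and posterior streak gave no call in limma, with 10 tested and a median of 0.03. At an unadjusted p under 0.05 there were 1 higher and 1 lower, against 21.6% of all tested genes, and limma-voom called 1 higher, Cdh2, against 11.8% of all in either direction. Dll3, a Notch ligand of presomitic mesoderm, was at 0.02 on the log2 scale and Cdh2, which encodes N-cadherin, at 0.26 (limma adjusted p = 0.0607). Cdh2 passed in limma-voom (adjusted p = 0.00593), with a filter at 5 FPKM (limma adjusted p = 0.0304) and with crossed replicate numbers as a block (0.0492), and its adjusted p ran up to 0.273 over the 13 alternatives. Snai1, a repressor of E-cadherin in cells leaving the streak, named after its values were seen, was at 3.03 and 3.79 FPKM with Luc esiRNA and at 2.27 and 2.22 FPKM with Tox4 esiRNA, a change that did not pass (-0.44, limma adjusted p = 0.0901). Among 15 tested genes of the organizer, node and definitive endoderm, Cer1, a secreted antagonist of Nodal, BMP and Wnt, rose (7.82 and 8.29 to 10.3 and 10.7 FPKM, log2 fold change 0.35, limma adjusted p = 0.0350), none fell and 14 did not pass, with a median of 0.05.

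The pathway and family lists together, from the T-box family to the Sp and LIM-homeobox relatives, held 105 tested genes outside the streak genes themselves. Of these 11 rose, Cer1 included, and 3 fell, 13.3% of them, where 4.51% of all tested genes passed. The lists were chosen with earlier results of these data known, and all tested genes were not matched to them by level. Set against that share, these calls are therefore no test of enrichment, and the same holds for the single lists. Most of these calls were lost in at least 1 fit with a library left out, as given below. In the Wnt list of 24 tested genes, Sfrp1, a secreted Wnt antagonist, rose (43.0 and 42.3 to 63.0 and 62.4 FPKM, log2 fold change 0.54, SE 0.03, limma adjusted p = 0.00263). Ctnnb1, which encodes beta-catenin, rose by 0.20, while 22 did not pass. At an unadjusted p under 0.05 the Wnt list held 7 higher and 1 lower, against 21.6% of all in either direction. Limma-voom called 4 higher and 0 lower in it, against 11.8% of all. Wnt3, the ligand that induces T in the embryo, and Axin2, a general Wnt target, both named after their values were seen, were at 0.29 (adjusted p = 0.0851) and 0.0039.

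Beside the lists that follow, 1.89% of all tested genes rose and 2.62% fell in limma, with a median of -0.0034. In either direction, 21.6% of all passed at an unadjusted p under 0.05 and 11.8% in limma-voom. In the Nodal and Activin list of 17 tested genes, Tdgf1, the co-receptor Cripto, fell (404 and 390 to 328 and 325 FPKM, log2 fold change -0.28, limma adjusted p = 0.0161). Smad7, a feedback inhibitor, rose (0.26) and 15 did not pass. At an unadjusted p under 0.05 this list held 3 higher and 2 lower, and limma-voom called 2 higher and 2 lower. In the BMP list of 16, Bmp4 fell (4.73 and 4.87 to 3.54 and 3.27 FPKM, -0.40), the target genes Id2 (0.59) and Id3 (0.24) rose, and 13 did not pass. The BMP list held 3 higher and 2 lower at an unadjusted p under 0.05, and 3 higher and 1 lower in limma-voom. In the FGF list of 13, the feedback inhibitor gene Spry2 (0.25), Fgf15 (0.27) and the receptor gene Fgfr1 (0.20) rose. The target gene Etv5 fell (-0.26) and 9 did not pass, with a list median of 0.17. More FGF genes passed without adjustment, 7 higher and 3 lower at p under 0.05, and limma-voom called 5 higher and 2 lower. Among 13 tested Sp and LIM-homeobox relatives, Ldb1, which encodes the cofactor of Lhx1, rose by 0.23 and Ssbp2, an Ldb1 partner, by 0.27. The other 11 did not pass. At an unadjusted p under 0.05 these relatives held 4 higher and 0 lower, and limma-voom called 4 higher and 0 lower. Of the 9 genes of follistatin and the Activin antagonists, none passed in limma or in limma-voom and 1 was higher at an unadjusted p under 0.05, with Fstl1 at 0.0057 and Bambi at -0.03.

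With each library left out in turn, T and Sfrp1 kept their calls (adjusted p up to 0.0302 and 0.0304). The other 13 of the 14 calls in these lists were lost at least once. Counting Sfrp1, 1 of the 14 was kept without Luc replicate 1, 1 without Luc replicate 2, 4 without Tox4 replicate 1 and 3 without Tox4 replicate 2, and without either Luc library the call kept was Sfrp1 alone.

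**Figure D4:**
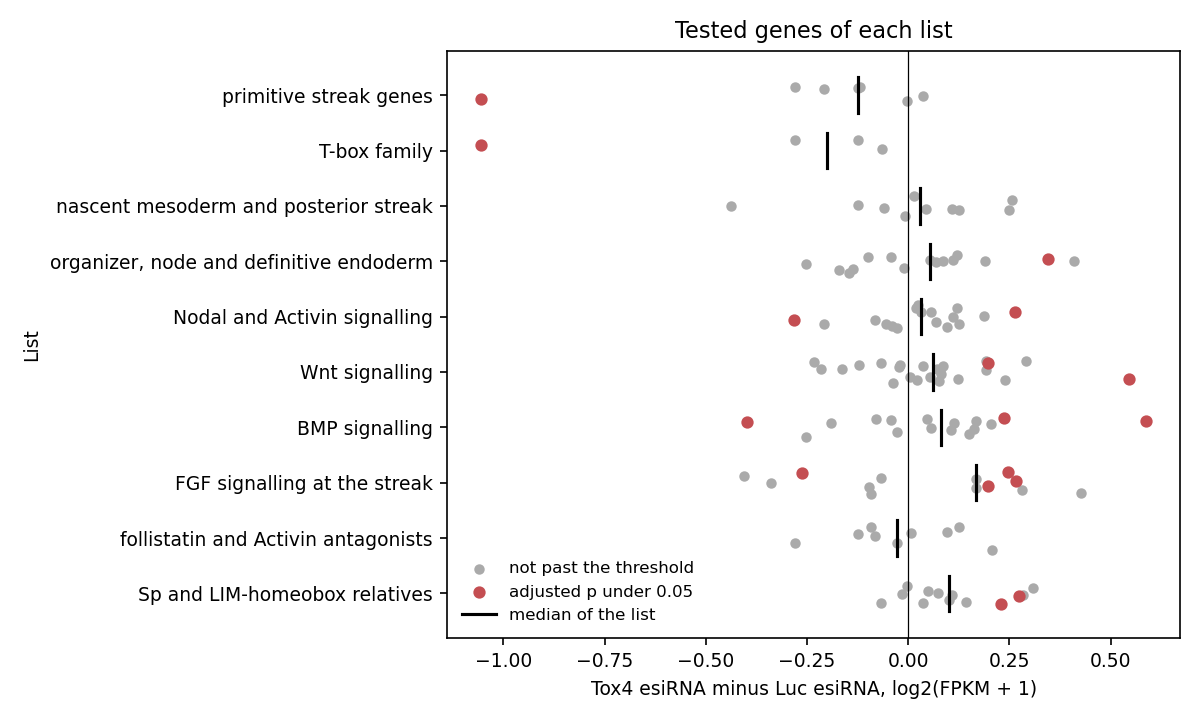
Difference between Tox4 and Luc esiRNA on the log2(FPKM + 1) scale (horizontal axis) for every tested gene of the streak genes and of the 9 pathway and family lists (cell type markers are not drawn); red points passed at adjusted p under 0.05, grey points did not, and black bars are list medians. T is the red point at -1.06 in the upper 2 lists, and all other calls drawn lie between -0.40 and 0.59.

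The genes whose values over the 4 libraries were most like those of T were not streak genes. By Euclidean distance between gene-centred log2(FPKM + 1) values, among the 9065 genes averaging 5 FPKM or more, the nearest were, in this order, Gadd45b, a stress-response gene, the adaptor gene Dok2, the guanylate-binding protein gene Gbp2, the immediate early gene Ier3 and Tox4 itself, at distances of 0.0359 to 0.165. Gadd45b was at 23.3 FPKM in both Luc libraries and at 10.4 and 11.1 FPKM in the Tox4 libraries. Dok2 was at 10.4 and 10.2 FPKM against 4.44 and 4.53 FPKM. With 2 groups of 2 libraries this measure finds genes with a fall of the same size and similar replicate spread.

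Markers of other cells were measured beside T because streak genes are also expressed outside the streak, Foxa2 and Sox17 in visceral endoderm and Eomes in trophoblast. Of 17 visceral and primitive endoderm markers 8 were found, their summed level was 18.1 to 18.7 FPKM in the Luc libraries and 14.9 to 17.0 FPKM in the Tox4 libraries, and none of 4 tested passed in limma, at an unadjusted p under 0.05 or in limma-voom. Col4a1 (5.53 to 6.45 FPKM), Rhox5 (2.51 to 5.20 FPKM) and Dab2 (3.38 to 3.86 FPKM) were the most abundant of them, and Cubn had 1 read in each Luc library and was listed at 0 in both Tox4 libraries, too few for a comparison. Of 11 trophoblast markers 5 were found, with sums of 65.2 to 66.0 and 48.4 to 51.1 FPKM. Most of this came from the keratin genes Krt8 and Krt18, which fell (-0.30 and -0.46). Of 4 tested, 2 passed in limma, both lower, where 2.62% of all tested genes fell. At an unadjusted p under 0.05 there were 3 lower, against 11.5% of all, and limma-voom called 2 lower, against 5.87%. Of 10 fibroblast markers 7 were found, with sums of 15.5 to 16.2 and 15.7 to 17.5 FPKM, led by Acta2, Col1a2 and Thy1, and none of 4 tested passed in limma, at an unadjusted p under 0.05 or in limma-voom. All 15 genes of the epiblast stem cell list were tested, and 3 fell and 1 rose in limma. Of all tested genes 2.62% fell and 1.89% rose. At an unadjusted p under 0.05 this list held 7 lower and 1 higher, against 21.6% of all in either direction and 11.5% as lower. Limma-voom called 4 lower and 1 higher, against 5.87% and 5.95% of all. The groups lay apart for 9 as lower and 3 as higher, against 26.7% and 25.3% of all. Cdh1, which encodes E-cadherin, fell from 29.0 and 29.3 to 16.2 and 17.3 FPKM (-0.77, limma adjusted p = 0.00263). The tight junction gene Cldn6 fell by 0.60, together with Tdgf1, while Sox2 rose. The part of these other genes in the fall of T was not tested.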

How the data were processed

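Per the labels, polyadenylated RNA of OE7 epiblast stem cells was sequenced from 2 libraries with Luc esiRNA and 2 with Tox4 esiRNA. The authors deposited FPKM values, 1 table of the series and 1 file per library that repeats them. CASAVA 1.8, STAR 2.3.0e and GRCm38.p1 are named in the submitters' processing notes. Counting program, annotation and strand setting: not given in the sources used here. Whole reads were worked back from the FPKM values (100% of values within 1e-06 of a whole number; a common factor was chosen for 4.56% of genes). The smallest such numbers were taken, so reads of a gene could be too low by a common factor. Replicates differed by more than sampling noise (chi-square per degree of freedom 1.65 and 1.98).

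The 12403 genes that averaged 1 FPKM or more were tested on log2(FPKM + 1) with limma 3.58.1 (R 4.3.3) by its two-sided moderated test, trended on intensity, without covariates, on 2 residual and 4.01 prior degrees of freedom, with Benjamini-Hochberg adjustment at 0.05. The fit and the recovery were tested on simulated data. Intervals of read ratios are exact binomial. Named are all listed streak genes and the 5 genes most like T. Of each pathway list, up to 4 called genes are named, or else its 2 most abundant. The 3 most abundant markers of each cell type list are named too, except for trophoblast, where only Krt8 and Krt18 are. Tbx6, Mga, Snai1, Wnt3, Axin2, Cdh1, Cldn6, Sox2, Cubn, T2 and Fndc1 were named after their values were seen. Coordinates came from GENCODE M21 (GRCm38) and promoters from RefSeq (GRCm38.p6). The members and lists were chosen with earlier results of these data known. Alternatives were other pseudocounts, filters, variance prior, scaling, a replicate block, left-out libraries and limma-voom on recovered reads.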

Additional observations from a re-analysis of the deposited data

How the results depend on the processing

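T kept its direction and call under all 13 alternatives, with log2 fold changes from -1.19 to -1.02 and adjusted p up to 0.0302, and Foxa2 stayed lower and not past the threshold under the same 13 (adjusted p 0.0583 to 0.394). Without a filter on low values, all genes gave 146 higher and 202 lower, and the pathway lists 5 and 1; with a filter at 5 FPKM, 365 genes were higher. Without an intensity trend there were 33 and 45, with 1 higher and 0 lower in the pathway lists. Limma-voom on recovered reads gave 738 and 728, 20 and 5 in the pathway lists and 2 lower among the streak genes, with Eomes past the threshold (-0.37); Lhx1 was at 0.0054. Leaving out 1 library at a time gave 27 to 176 higher and 34 to 296 lower for all genes (fewest without either Luc library), 1 to 3 and 0 to 3 for the pathway lists, -0.24 to 0.0029 for Gsc, -0.085 to 0.076 for Lhx1, -0.13 to 0.20 for Sp8, -0.25 to 0.00090 for Fst, -0.0059 to 0.066 for Pou5f1, -0.010 to 0.040 for Dll3, -0.031 to 0.042 for Fstl1 and -0.077 to 0.024 for Bambi. Such a fit takes the spread from the remaining pair and assumes that the lone library varies alike. The cause of these shifts was not tested.

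With the replicate number as a block 222 genes were higher and 334 lower, and T was at an adjusted p of 0.000587. The numbers are not known to pair the libraries: the replicate differences of the groups correlated at -0.04 (Pearson) and -0.15 (Spearman) across genes. The block ended the calls of Ctnnb1 (0.0634), Bmp4 (0.0681), Id3 (0.0634), Fgfr1 (0.0635) and Ssbp2 (0.0536). With crossed numbers, an alternative added after seeing the data, 270 were higher and 393 lower, with 1 lower in the pathway lists. Eomes, Lhx1, Sp8 and Fst have no value with the filter at 5 FPKM. Depth limits Sox17, on 10 to 18 recovered reads per library, and Gsc, on 44 to 88. The implied lengths of both were short of their annotated exons, so these reads could be too low by a common factor.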
